A study of Mus musculus with 6 samples.

Results

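The genes described here encode subunits of the mitochondrial respiratory chain and of the ATP synthase. They were taken by gene symbol: the Nduf subunits of complex I, Sdha to Sdhd of complex II, the Uqcr genes, Cyc1 and Cycs, the Cox4 to Cox8 genes except 1, and the Atp5 genes. A probe set, a group of short probes that reads 1 transcript, was taken only if the array's annotation named exactly 1 gene for it. This gave 167 of 44935 probe sets, for 81 of 18163 genes. The rule uses no measured value. Ndufa4 is counted with complex IV, where its protein is now placed. All genes named here are nuclear, and the subunits encoded in mitochondrial DNA were not analysed here.

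Mice were males aged 3 months on a mixed C57BL6 and 129Sv background, and each array held RNA of the entire adrenal gland. All animals, at both times, carried the Per2Brdm1 mutation and lacked Cry1, so that by the labels they have no working circadian clock. No wild-type glands enter the comparison. After a light-dark cycle the mice went into constant darkness. Counted from lights off, 3 arrays show 54 h and another 3 show 46 h, called replicates 1, B and C of each time. The labels do not say which animal each array came from, so the spread between arrays may be technical in part. A whole gland mixes cortex, medulla and attached tissue, so in such bulk RNA fewer cells of a type and less RNA per cell cannot be told apart.

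Complexes I to IV of the inner mitochondrial membrane pass electrons from NADH and succinate to oxygen and pump protons, except that complex II pumps none. Ubiquinone carries electrons to complex III and cytochrome c carries them on to complex IV. Complex V, the ATP synthase, lets the protons flow back and makes ATP. Cells of the adrenal cortex are rich in mitochondria, which also house the enzymes that start and finish corticosterone synthesis.

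Values are probe set intensities on a linear scale, and the number of arrays limits their precision. Array medians over all probe sets lay between 203.9 and 217.2 units and the highest value was 17878.9 units. All 8 cortex markers, Star, Cyp11a1 and Cyp11b1 among them, and all 6 medulla markers, Th, Dbh and Pnmt among them, passed the filter on low values, and none of them passed the test, though all lay below 0. Liver markers were summed over 7 genes to 7191, 11042 and 8931 units at 54 h (replicates 1, B, C in that order, as everywhere below), against 5239, 3310 and 4989 units at 46 h, and brown fat markers over 4 genes to 7328, 7095 and 7181 units, against 6485, 3361 and 5227 units. Both lists stood higher on every 54 h array, and both were lowest on 46 h replicate B. In limma 1 liver marker, Serpina1b, and 1 of 3 red cell markers, Hbb-b2, passed (adjusted p = 0.0343 and 0.0288). The other globin, Hba-a1, went the other way (log2 difference -0.30 ± 0.30 SE), and the red cell markers summed to 1747, 1931 and 2199 units at 54 h, against 1684, 1682 and 1245 units at 46 h. Skeletal muscle markers, of which 3 of 7 passed the filter, summed to 2267, 1973 and 2109 units at 54 h, against 1529, 1563 and 1615 units at 46 h. These markers did not move together. Eno3 averaged 1533 units at 54 h and 1078 units at 46 h, Myl1 179 and 132 units, and Ckm 206 units at both times. Of those under the filter Acta1 averaged higher at 54 h, Mylpf and Tnnt3 lower, and Tnnc2 about the same. White fat markers over 3 genes summed to 13772, 9261 and 11148 units at 54 h, against 11935, 10622 and 11776 units at 46 h. Of these Lep averaged 246 units at 54 h and 157 units at 46 h, Retn 4150 and 3797, and Adipoq 6997 and 7490. Kidney markers, of which 1 of 5 passed the filter, summed to 1824, 1645 and 2027 units at 54 h. At 46 h they summed to 1799, 1680 and 1615 units. What part any of these tissues had in the results below was not tested.

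None of the respiratory chain and ATP synthase probe sets differed between 54 h and 46 h past the test. Of the 167 probe sets, 147 for 76 genes passed the filter on low values (a mean above the 40th percentile), and 0 of these reached a limma adjusted p of 0.05, where 0.115% of all 26961 probe sets tested did, 0.0593% as higher and 0.0556% as lower. The smallest limma adjusted p among them was 0.109, for the Atp5o probe set 1437164_x_at. The median log2 difference, 54 h minus 46 h of log2(intensity + 16), was 0.02, against -0.02 over all probe sets tested. The middle 50% of the members lay between -0.04 and 0.08, and of all probe sets between -0.12 and 0.08. The 95% confidence interval excluded a 1.5-fold difference in either direction for 146 of the 147, and reached a median of 0.12 to either side of the estimate. The exception was the Atp5a1 probe set 1420037_at, with an interval from 0.17 to 0.68. The median standard error was 0.05 for the members and 0.12 for all probe sets tested. By this fit small differences were thus bounded more closely here than for the array as a whole. These errors and intervals rest on a prior variance that followed the intensity.

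By limma's unadjusted p of 0.05, 26 members were higher at 54 h, or 17.7%, where 4.34% of all probe sets tested were. In the other direction 5 were lower, or 3.4%, where 5.75% of all were. Those 26 belonged to 21 genes and the 5 to 5 genes, with Sdhd in both. In 33 members every 54 h value lay above every 46 h value, or 22.4% against 6.48% of all probe sets tested, and in 9 every 54 h value lay below, or 6.12% against 9.05%. The tested members were bright, with a median of 6217 units, and had smaller standard errors than all probe sets tested, as given above. The shares of all were not taken at like intensity. These counts rested on the way the variance was estimated. Without an intensity trend in eBayes 9 members were higher, or 6.12% against 3.93% of all, and 1 was lower, or 0.68% against 5.26%. The counts also changed when single arrays were left out, and the shares of all changed with them. Leaving out 46 h replicate 1 gave 16 higher, or 10.9% against 2.65% of all. Leaving out 46 h replicate B gave 17, or 11.6% against 3.8%. Without 54 h replicate B 18 were lower, against 5 with it, or 12.2% against 7.81% of all, and the median log2 difference was -0.000401. The number lower was 2 (1.36%) without 54 h replicate 1, 46 h replicate 1 or 46 h replicate C, where 4.01%, 4.06% and 6.9% of all were, and 1 (0.68%) without 54 h replicate C, where 2.81% were. With each gene counted once, by its brightest probe set, 9 of 76 genes were higher at that level, or 11.8% against 4.13% of all 13780 genes, and 4 were lower, or 5.26% against 6.2%. The median log2 difference of the 76 genes was then -0.000065.

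**Figure D1:**
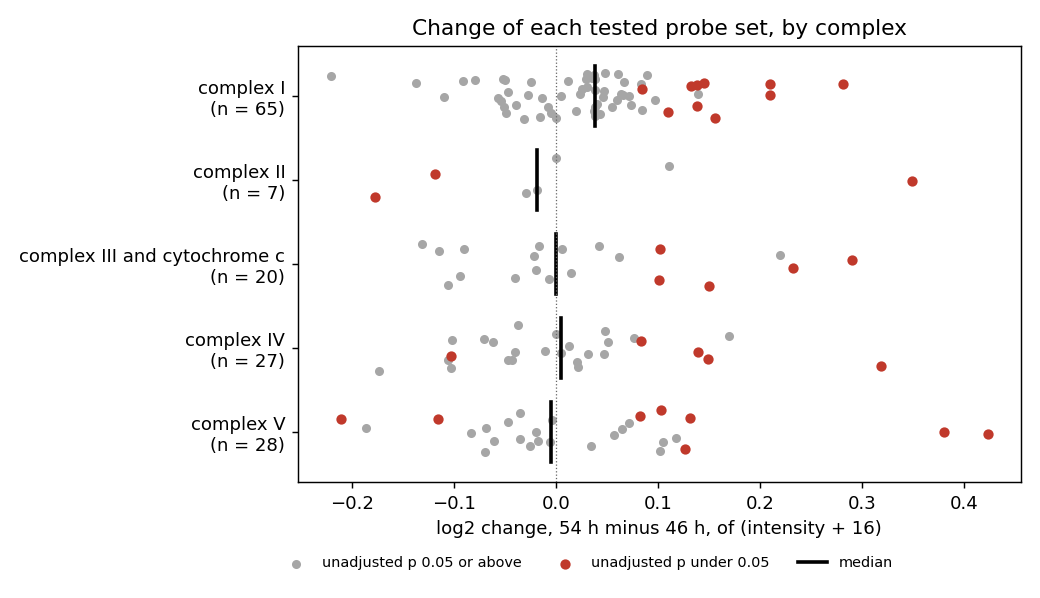
Log2 difference, 54 h minus 46 h, of (intensity + 16) on the horizontal axis for each of the 147 tested probe sets, by complex, with vertical scatter for legibility, medians as black bars and probe sets at an unadjusted p under 0.05 in red. All medians lie within 0.04 of 0, and 26 red points lie above 0 and 5 below.

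By complex the medians were all near 0. Complex I had 0.04 over 65 probe sets for 32 genes, complex II -0.02 over 7, complex III with cytochrome c -0.00026 over 20, complex IV 0.0048 over 27 and complex V -0.0046 over 28. Above 0 were 44 of 65 for complex I, 3 of 7 for complex II, 10 of 20 for complex III with cytochrome c, 15 of 27 for complex IV and 13 of 28 for complex V, where 44.4% of all probe sets tested were. Without 54 h replicate B the median of complex I was -0.0003, and without other single arrays it lay between 0.026 and 0.053. The medians of the other complexes lay on either side of 0, depending on the array left out. Of all probe sets tested 4.34% were higher and 5.75% lower by limma's unadjusted p of 0.05. Higher were 15.4% for complex I, 14.3% for II, 25% for III with cytochrome c, 14.8% for IV and 21.4% for V. Lower were 0%, 28.6%, 0%, 3.7% and 7.14% in that order, where complex II has only 7 probe sets. Whether the complexes differ from each other was not tested.

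**Figure D2:**
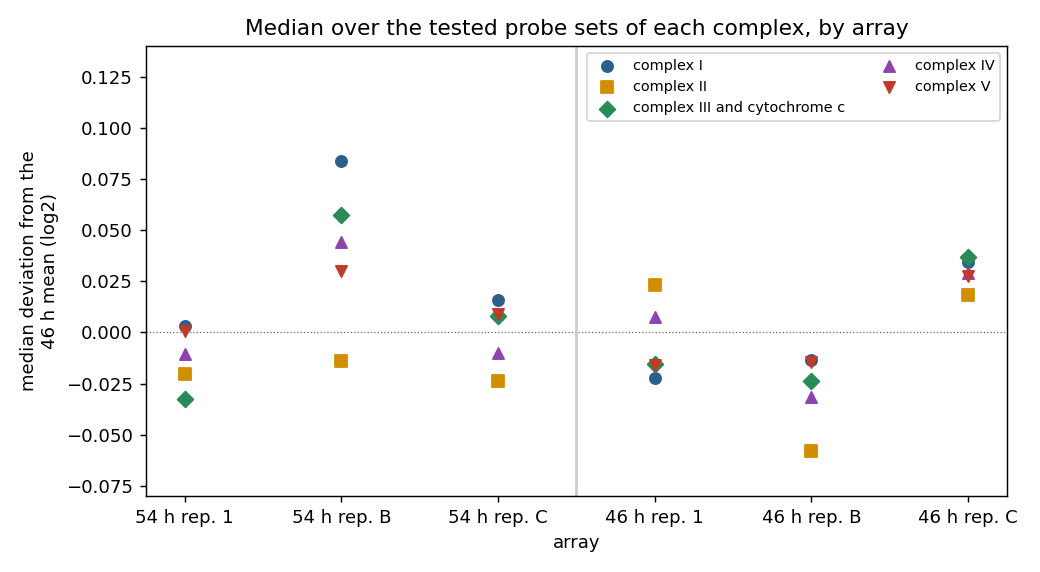
Median over the tested probe sets of each complex of the deviation from the 46 h mean (log2, vertical axis), for each array on the horizontal axis, 54 h arrays on the left and 46 h arrays on the right. Complex I reaches 0.08 on 54 h replicate B and lies at 0.0031 and 0.016 on the other 54 h arrays, and no median lies further from 0 than that.

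The arrays of 1 time differed by as much as the times did. The median deviation of complex I from its 46 h mean was 0.0031, 0.08 and 0.016 on 54 h replicates 1, B and C, against -0.022, -0.014 and 0.034 on the 46 h replicates. The array with the highest median was 54 h replicate B for complexes I, III with cytochrome c, IV and V. The other 54 h arrays lay within or close to the range of the 46 h arrays.

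Cytochrome c, the mobile carrier between complexes III and IV, read higher at 54 h by all 3 of its tested probe sets, without passing the test. Probe set 1456071_a_at of Cycs read 9170, 8899 and 8949 units at 54 h, against 8525, 7562 and 8279 units at 46 h. Probe set 1422483_a_at read 5857, 6341 and 6045 units at 54 h, against 5224, 5089 and 5195 units at 46 h. Probe set 1422484_at read 3914, 3566 and 3580 units at 54 h, against 3045, 2762 and 3240 units at 46 h. In all 3 every 54 h array lay above every 46 h array. All 3 were lowest on 46 h replicate B, where the liver and brown fat sums given above were lowest too. The part of those tissues in the Cycs difference was not tested. The log2 differences were 0.15 ± 0.05 SE, 0.23 ± 0.05 SE and 0.29 ± 0.07 SE, and the limma adjusted p was 0.335, 0.125 and 0.224, so none passed. Leaving out single arrays moved the second between 0.20 and 0.26 and the third between 0.23 and 0.34. For the first, the log2 difference lay between 0.10 and 0.19. Another Cycs probe set, 1445484_at, was under the filter. The cytochrome c gene has processed copies in the mouse genome, and whether these probe sets also read them was not tested.

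Many respiratory chain genes are known targets of the factors NRF1, GABPA (of the ETS family), YY1 and ERR alpha. The promoter table of RefSeq (assembly GRCm38.p6) held 71 windows for 66 of the 81 genes, each from 250 bases before to 50 bases after a start. Both strands were searched for short cores of 7 letters: GCATGCG for NRF1, CCGGAAG for ETS factors, AAGATGG for YY1 and AAGGTCA for ERR. The NRF1 core reads nearly the same on both strands, so 1 site can be found on each. It was in 11 of the 71 windows, or 15.5%, against 5.07% of the 18080 windows of genes named on the array and 3.58% of all 32851 windows. The ETS core was in 17, or 23.9%, against 13% and 8.86%. The YY1 core was in 10, or 14.1%, against 6.38% and 6.34%, and the ERR core in 8, or 11.3%, against 3.92% and 4.72%. A match describes the letters and is no evidence of binding, and the shares were not tested.

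The bases before the start are shown for Cycs, whose probe sets lay higher at 54 h, for Atp5j and Sdhb, whose probe sets lay lower, for Sdhd, whose probe sets lay on both sides, and for Atp5o, whose probe sets lay higher and whose window holds no core. They run 5′ to 3′ on the gene's strand, and capitals mark the cores found before the start.
Cycs (chr6:50566570-50566819, minus strand): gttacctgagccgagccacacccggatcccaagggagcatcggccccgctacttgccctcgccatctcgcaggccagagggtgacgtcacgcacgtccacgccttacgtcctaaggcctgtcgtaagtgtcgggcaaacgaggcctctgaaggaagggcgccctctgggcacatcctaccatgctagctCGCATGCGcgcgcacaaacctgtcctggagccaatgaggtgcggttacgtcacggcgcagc
Atp5j (chr16:84834977-84835226, minus strand): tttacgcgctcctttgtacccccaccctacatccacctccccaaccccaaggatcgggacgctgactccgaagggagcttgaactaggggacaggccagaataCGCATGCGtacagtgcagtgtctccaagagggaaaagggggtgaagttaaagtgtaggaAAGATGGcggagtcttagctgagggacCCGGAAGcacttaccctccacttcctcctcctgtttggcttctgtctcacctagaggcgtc
Sdhb (chr4:140961021-140961270, plus strand): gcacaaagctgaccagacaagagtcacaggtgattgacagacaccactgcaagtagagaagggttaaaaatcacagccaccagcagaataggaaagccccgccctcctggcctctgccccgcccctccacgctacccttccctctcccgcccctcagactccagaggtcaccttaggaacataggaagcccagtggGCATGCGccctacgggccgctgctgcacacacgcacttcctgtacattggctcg
Sdhd (chr9:50603850-50604099, minus strand): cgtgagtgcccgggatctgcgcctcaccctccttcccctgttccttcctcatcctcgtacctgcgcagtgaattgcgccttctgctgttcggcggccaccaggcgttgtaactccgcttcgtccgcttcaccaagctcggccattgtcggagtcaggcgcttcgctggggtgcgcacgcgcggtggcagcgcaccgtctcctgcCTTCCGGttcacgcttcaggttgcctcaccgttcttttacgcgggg
Atp5o (chr16:91931631-91931880, minus strand): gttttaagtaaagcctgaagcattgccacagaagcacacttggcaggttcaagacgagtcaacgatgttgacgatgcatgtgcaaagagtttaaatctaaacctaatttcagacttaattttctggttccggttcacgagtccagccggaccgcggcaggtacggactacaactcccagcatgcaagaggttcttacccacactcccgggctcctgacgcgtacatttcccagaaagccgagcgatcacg

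The capitals in Cycs are 2 NRF1 cores that overlap on opposite strands, starting 61 and 60 bases before the start. Atp5j holds the same overlapping pair 147 and 146 bases before the start, a YY1 core 88 bases and an ETS core 61 bases before it, while a second start of Atp5j in the table has no core in its window. Sdhb holds an NRF1 core 54 bases before the start, and Sdhd an ETS core 46 bases before it. In the 50 bases after the start, not shown, the window of Sdhb also holds an ETS core and that of Sdhd an ERR core. The windows of Cox8b, Cox5a, Cox5b, Ndufa5, Ndufb5, Ndufb10 and Ndufv2 hold none of the cores, as for Atp5o. These genes also read higher at 54 h by 1 or more probe sets, by limma's unadjusted p. Among other genes that read higher in this way, the windows of Ndufb6, Ndufb7, Atp5h and Uqcrh hold an ETS core. That of Ndufb2 holds an ERR core, and those of Ndufs4, Ndufc1 and Atp5j2 hold a YY1 core.

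Complex I, the NADH dehydrogenase, has a matrix arm that takes electrons from NADH and a membrane arm that pumps protons. Of its 65 tested probe sets 10 were higher by limma's unadjusted p of 0.05, or 15.4% against 4.34% of all probe sets tested, and 0 were lower, against 5.75%. In the membrane arm, the Ndufb6 probe set 1434056_a_at read 6814, 6102 and 6620 units at 54 h, against 5628, 5686 and 5553 units at 46 h. The groups did not overlap, and the log2 difference was 0.21 ± 0.05 SE (limma adjusted p = 0.206). The other Ndufb6 probe set, 1434057_at, also had no overlap, at 6231, 6253 and 6234 units at 54 h against 6139, 5998 and 6026 units at 46 h, but its log2 difference was 0.04 ± 0.04 SE. Ndufb9, also of the membrane arm, read 7963, 7850 and 7675 units at 54 h by probe set 1436803_a_at, against 7088, 6874 and 7114 units at 46 h. All 3 values at 54 h were above those at 46 h, with a log2 difference of 0.16 ± 0.04 SE (limma adjusted p = 0.216). Its other probe sets had 0.07 and -0.06. The membrane arm subunits Ndufb10, Ndufb7, Ndufb2 and Ndufb5 had 1 probe set each at that level, with log2 differences between 0.11 and 0.15 and limma adjusted p between 0.360 and 0.483.

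In the matrix arm, the accessory subunit Ndufa5 read 4539, 4337 and 4120 units at 54 h by probe set 1417285_a_at, against 3683, 3752 and 3787 units at 46 h. The groups did not overlap (log2 difference 0.21 ± 0.06 SE, limma adjusted p = 0.250), and its second probe set had 0.14 ± 0.07 SE, with overlap. Ndufs4, an accessory subunit of the matrix arm whose loss causes Leigh syndrome, differed between its probe sets. Probe set 1438166_x_at read 1458, 1260 and 1312 units at 54 h, against 1075, 1074 and 1152 units at 46 h, without overlap and with a log2 difference of 0.28 ± 0.09 SE (limma adjusted p = 0.333). The other tested Ndufs4 probe sets had 0.04 and 0.07. Ndufv2, an iron-sulfur subunit of the part that binds NADH, had 0.13 ± 0.04 SE by 1 probe set (limma adjusted p = 0.345) and -0.03 and 0.03 by the others. The iron-sulfur subunit Ndufs8, with 6 probe sets, was even: all 6 lay between 0.02 and 0.07. Ndufs7, which holds the iron-sulfur cluster next to ubiquinone, had 0.03 and -0.14 ± 0.07 SE, and Ndufv1, which binds NADH and the flavin, had 0.04, 0.04 and -0.11 ± 0.08 SE.

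Complex II, succinate dehydrogenase, feeds electrons from the citric acid cycle into the chain. Its iron-sulfur subunit Sdhb read 7670, 8498 and 7994 units at 54 h, against 8803, 8649 and 8757 units at 46 h. Every 54 h array lay below every 46 h array, and the log2 difference was -0.12 ± 0.04 SE (limma adjusted p = 0.421). The probe sets of the membrane anchor Sdhd went opposite ways. Probe set 1437489_x_at read 3992, 3052 and 3932 units at 54 h, against 2862, 2796 and 2884 units at 46 h. Probe set 1428235_at read 3293, 3787 and 3239 units at 54 h, against 3945, 3729 and 3976 units at 46 h. On both, 54 h replicate B stood nearest to the 46 h arrays, and replicates 1 and C stood apart. The first probe set did not overlap between the times, and the second did, with 54 h replicate B within the 46 h range. Their log2 differences were 0.35 ± 0.10 SE and -0.18 ± 0.07 SE (limma adjusted p = 0.274 and 0.450). Without 54 h replicate B the first was 0.47 and passed (limma adjusted p = 0.0395), the 1 member that passed in any of the settings tried, and the second was -0.25. Over the 6 fits that left out an array, the limma adjusted p of the first ran from 0.0395 to 0.905. The flavoprotein subunit Sdha had -0.03 and -0.02 by its tested probe sets, and the anchor Sdhc had 0.00012 and 0.11.

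Complex III passes electrons from ubiquinol to cytochrome c. Of the 17 probe sets of its subunits 2 were higher by limma's unadjusted p of 0.05, or 11.8% against 4.34% of all probe sets tested, and 0 were lower, against 5.75%. The median log2 difference was -0.02. The core protein gene Uqcrc2 had 0.10 ± 0.04 SE by 1 probe set (limma adjusted p = 0.430) and -0.04 by the other. Uqcrh, the hinge protein, had 0.10 ± 0.04 SE (limma adjusted p = 0.490) and 0.0065. Uqcrfs1, the Rieske iron-sulfur protein, had -0.11 ± 0.06 SE, the core protein gene Uqcrc1 -0.12 ± 0.08 SE and cytochrome c1, Cyc1, 0.04. The Uqcrb probe set 1455997_a_at, the member nearest the top of the scale, read 14357, 16190 and 14624 units at 54 h, against 16153, 15287 and 16748 units at 46 h. These overlap (log2 difference -0.09 ± 0.05 SE). Its other probe set had 0.06. Uqcrq, a small subunit, had 4 probe sets between -0.02 and 0.22, and Uqcr10, another, lay below 0 by all 3, between -0.13 and -0.02.

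Complex IV, cytochrome c oxidase, hands electrons to oxygen. The subunit Cox5a read 9403, 9404 and 9587 units at 54 h by probe set 1415933_a_at, against 8772, 8372 and 8455 units at 46 h. A second probe set, 1439267_x_at, read 7096, 6733 and 6992 units at 54 h, against 6344, 6476 and 6083 units at 46 h. Neither overlapped between the times, with log2 differences of 0.15 ± 0.04 SE and 0.14 ± 0.04 SE (limma adjusted p = 0.204 and 0.334), while the third Cox5a probe set had 0.02. Cox6c went the other way by probe set 1415970_at, with 9744, 10154 and 9469 units at 54 h, against 10432, 10200 and 10911 units at 46 h. The groups did not overlap (log2 difference -0.10 ± 0.04 SE, limma adjusted p = 0.446), and its other probe set had 0.01. Cox5b, the zinc-binding subunit, had 4 tested probe sets between 0.03 and 0.08, of which 1456588_x_at was higher by limma's unadjusted p of 0.05 (0.08 ± 0.03 SE, limma adjusted p = 0.462). Cox7a2l, which matches by symbol but is known for joining complexes III and IV into supercomplexes, lay below 0 by all 3 probe sets, at -0.04, -0.11 and -0.10.

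Several complex IV subunits come as isoforms used by different tissues. Cox8b, the form of striated muscle and brown fat, read 2779, 2667 and 2514 units at 54 h, against 2208, 1825 and 2370 units at 46 h. The groups did not overlap, and the lowest value was on 46 h replicate B (log2 difference 0.32 ± 0.10 SE, limma adjusted p = 0.327, 0.21 to 0.40 without single arrays). Among the brown fat markers Ucp1 and Cidea were also lowest on that array, as was Elovl3, which was under the filter, while Dio2 was not. Ucp1, the uncoupling protein, read 4564, 4407 and 4376 units at 54 h, against 4186, 1965 and 3350 units at 46 h. Cidea, a lipid droplet protein, read 2521, 2401 and 2579 units at 54 h, against 2002, 1152 and 1667 units at 46 h. Dio2, a deiodinase, was dim and went the other way, with 134, 155 and 117 units at 54 h, against 211, 190 and 115 units at 46 h (log2 difference -0.28 ± 0.21 SE). Their part in the Cox8b difference was not tested. The general form Cox8a had log2 differences of -0.05, -0.07 and 0.17 by its 3 probe sets, and Cox8c, known from testis, -0.04 and 0.05.

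Cox4i1, the general form of subunit IV, averaged 12740 ± 292 units at 54 h and 12698 ± 349 units at 46 h (SD, n = 3 each), a log2 difference of 0.0048 ± 0.03 SE. Cox4i2, the form known from lung and low oxygen, read 364, 380 and 390 units at 54 h, against 489, 449 and 358 units at 46 h, with overlap (log2 difference -0.17 ± 0.13 SE). The general forms Cox6a1 and Cox6b1 had log2 differences between -0.06 and 0.05 over 4 probe sets. The muscle form Cox6a2 and the testis form Cox6b2 were under the filter. Also under it, and so without a test, were Cox7b2, both Cox7c probe sets and the Ndufb4 probe set, and further probe sets of Ndufa12, Ndufa3, Ndufb2, Ndufc2, Ndufs4, Sdha, Cycs, Cox5b, Atp5g1 and Atp5g2. In all 20 probe sets were under it, and 5 genes had no other. Probe sets differ in how strongly they bind, so levels are not compared between them.

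**Figure D3:**
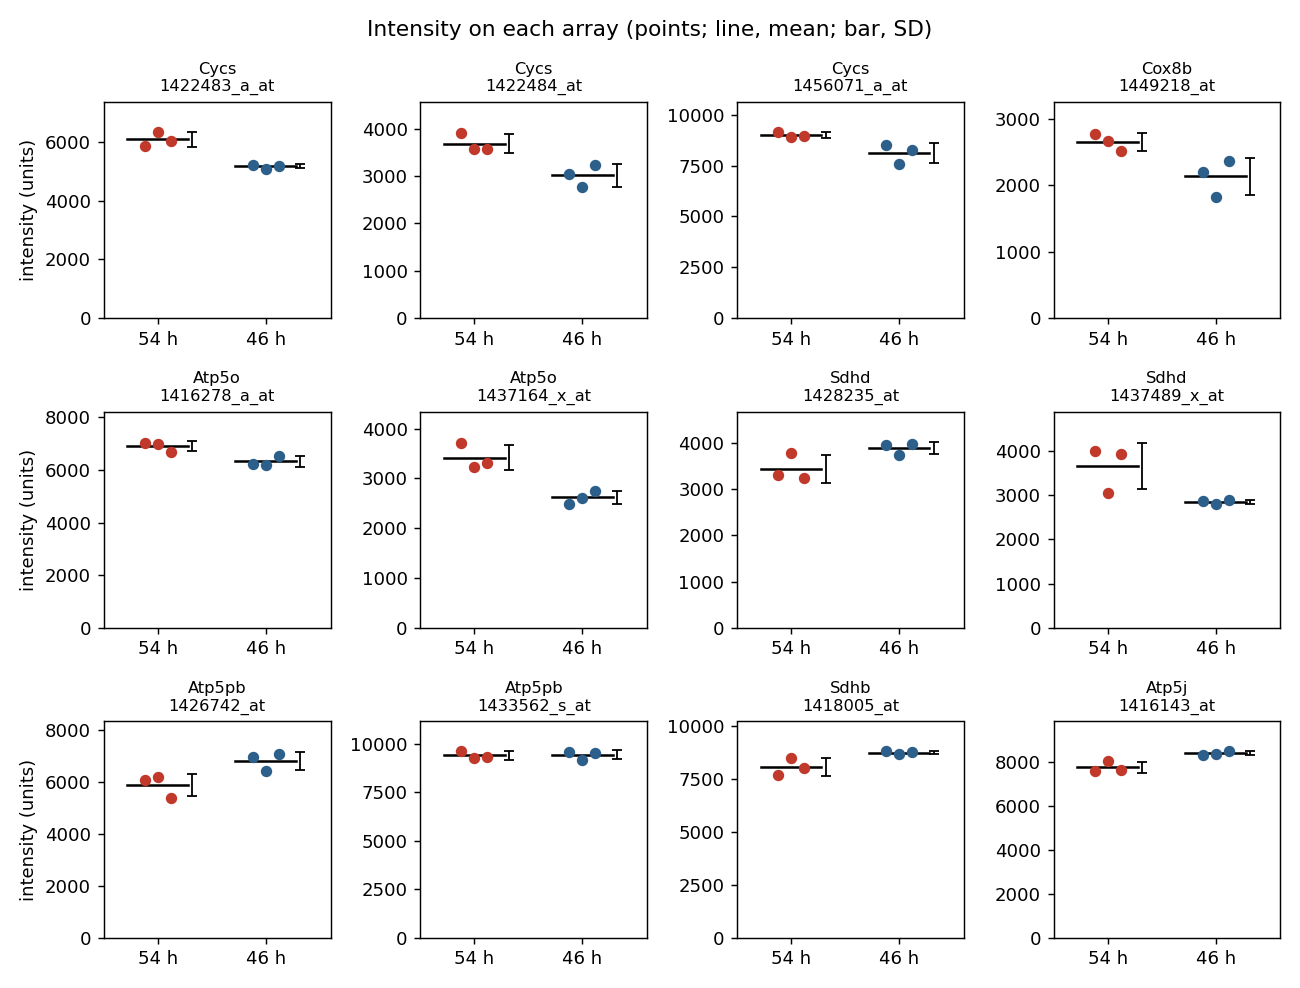
Intensity in units (vertical axis, from 0) on each array for 12 probe sets, 54 h in red on the left and 46 h in blue on the right, with the mean as a line and the SD as a bar (n = 3 each). The 3 Cycs panels, Cox8b and both Atp5o panels show 54 h above 46 h without overlap, Sdhb and Atp5j the opposite, and the panels of Sdhd and of Atp5pb differ within the gene.

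Complex V joins the catalytic F1 head to the membrane FO part through a stalk. Atp5o, the stalk protein that ties the head in place (OSCP), read 3712, 3235 and 3306 units at 54 h by probe set 1437164_x_at, against 2493, 2605 and 2755 units at 46 h. Its other probe set, 1416278_a_at, read 7039, 6994 and 6687 units at 54 h, against 6246, 6177 and 6550 units at 46 h. Neither overlapped between the times. The log2 differences were 0.38 ± 0.07 SE and 0.13 ± 0.04 SE (limma adjusted p = 0.109 and 0.383), and 0.32 to 0.42 and 0.11 to 0.15 without single arrays. Atp5o and Cycs were the genes with more than 1 tested probe set in which all were higher by limma's unadjusted p of 0.05.

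The other stalk and FO subunits lay on both sides of 0. Atp5pb, subunit b of the stalk, read 6096, 6200 and 5408 units at 54 h by probe set 1426742_at, against 6972, 6437 and 7072 units at 46 h. These did not overlap (log2 difference -0.21 ± 0.06 SE, limma adjusted p = 0.306), while its other probe set had -0.0057 and overlapped. Atp5j, coupling factor 6 of the stalk, read 7601, 8054 and 7632 units at 54 h, against 8334, 8377 and 8522 units at 46 h, also without overlap (log2 difference -0.12 ± 0.04 SE, limma adjusted p = 0.365). Atp5h, subunit d, lay above 0 by both probe sets, at 0.10 ± 0.04 SE and 0.06, and Atp5j2, subunit f, 0.13 ± 0.05 SE, -0.0035 and -0.19. The c-ring genes Atp5g1, Atp5g2 and Atp5g3 had log2 differences of 0.10, -0.02 and -0.06.

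In the F1 head, the alpha subunit gene Atp5a1 had 3 probe sets that differed. Probe set 1420037_at read 804, 684 and 827 units at 54 h, against 527, 564 and 621 units at 46 h, without overlap (log2 difference 0.42 ± 0.11 SE, limma adjusted p = 0.253). Probe set 1449710_s_at had 0.08 ± 0.03 SE (limma adjusted p = 0.464). Probe set 1423111_at averaged 10948 ± 809 units at 54 h and 11469 ± 542 units at 46 h (SD, n = 3 each), with overlap and a log2 difference of -0.07 ± 0.06 SE. The catalytic beta subunit Atp5b averaged 12954 and 13385 units at 54 h and 46 h, a log2 difference of -0.05 ± 0.04 SE. The gamma subunit Atp5c1 had -0.04 and 0.06, the delta subunit Atp5d 0.10 and 0.12, and the epsilon subunit Atp5e 0.03.

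Probe sets of 1 gene often lay on different sides of 0. Of 45 genes with at least 2 tested probe sets, 17 had all above 0, 6 had all below 0 and 22 had both. These counts of signs take no account of the standard errors, which had a median of 0.05 over the members. Only 1 gene, Sdhd, had probe sets at limma's unadjusted p of 0.05 in both directions. Within a gene the log2 differences spanned a median of 0.11 and at most 0.53, in Sdhd. The next widest were Atp5a1 with 0.49, Atp5j2 with 0.32, Ndufb8 with 0.27 and Atp5o with 0.25. In Ndufb8, of the membrane arm of complex I, the probe set 1458404_at averaged 259 units at 54 h and 303 units at 46 h, with overlap (log2 difference -0.22 ± 0.14 SE), and the other had 0.05. In all, 10 genes spanned more than 0.2.

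The counts also differed by kind of probe set. On this array the suffix _at marks probe sets designed for 1 transcript, _a_at those that read several transcripts of 1 gene, _s_at those that match several genes' transcripts, and _x_at those with some probes that also match other sequences. Of 65 member probe sets with _at, 5 were higher and 5 lower by limma's unadjusted p of 0.05, or 7.69% each way, against 3.45% higher and 5.29% lower of all with that suffix, and their median log2 difference was -0.02. Of the 82 others 21 were higher and 0 lower, with a median of 0.04. Among the 39 with _a_at 33.3% were higher, against 5.19% of all with that suffix, among the 16 with _s_at 12.5% against 5.51%, and among the 27 with _x_at 22.2% against 11.5%. The shares of all that were lower were 8.19%, 6.23% and 5.57% for these suffixes. This split by suffix was chosen with the values in view, and no test was made of it.

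**Figure D4:**
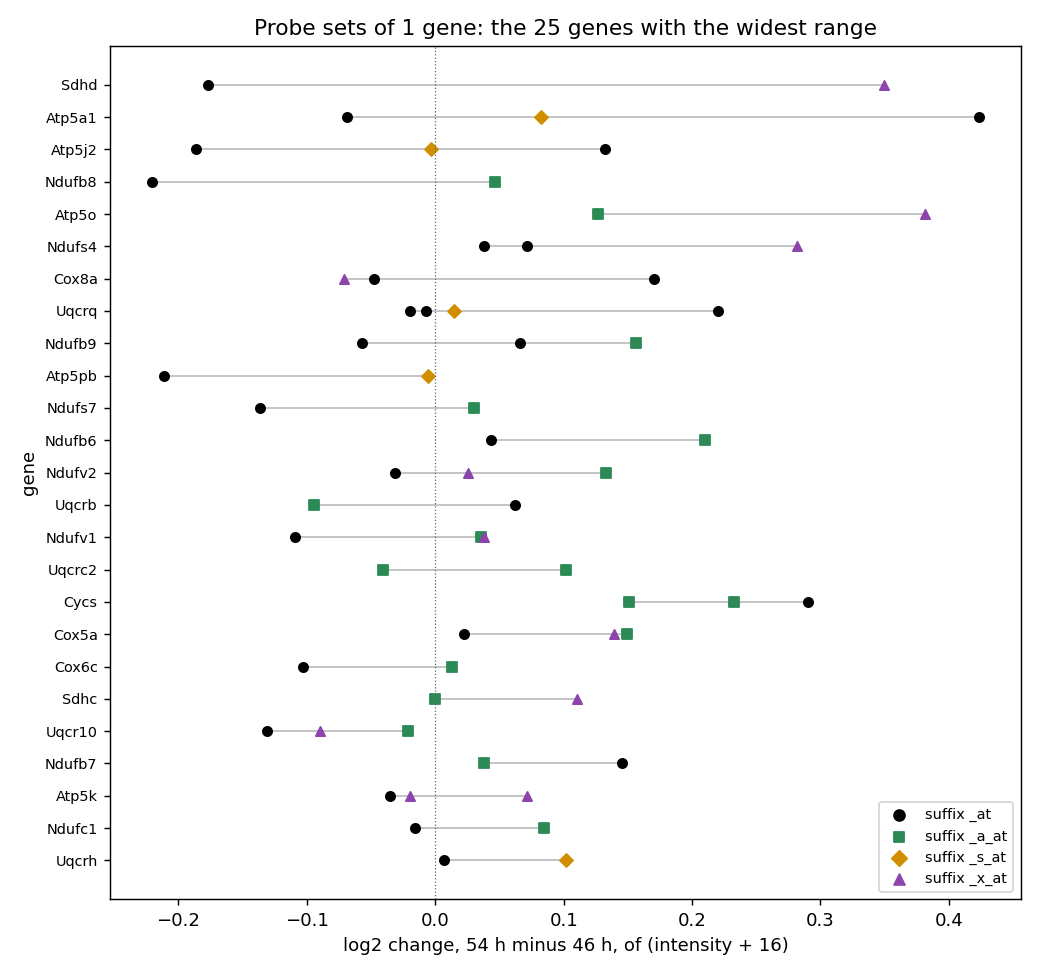
Log2 difference, 54 h minus 46 h, of (intensity + 16) on the horizontal axis for each tested probe set of the 25 genes whose probe sets span the widest range, 1 gene per row on the vertical axis, with symbols for the probe set suffix. Sdhd spans 0.53 across 0, while all Cycs and Atp5o probe sets lie above 0.

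Genes that serve the chain were read beside it, each from its brightest probe set, where 0.109% of all 13780 genes passed the test, 4.13% were higher at the unadjusted level and 6.2% lower. Of 37 assembly factors tested 0 passed limma. At the unadjusted level 0 were higher and 1, Surf1 of complex IV, was lower. Of these factors 28 lay below 0 and 9 above, with a median log2 difference of -0.05, against -0.02 over all 13780 genes. Of all probe sets tested, counted singly and not by gene, 44.4% lay above 0. Surf1 read 2986, 3000 and 2718 units at 54 h, against 3257, 3248 and 3455 units at 46 h, without overlap (log2 difference -0.19 ± 0.06 SE, limma adjusted p = 0.346). Of 12 citric acid cycle genes 0 passed limma, and at the unadjusted level 2 were higher and 1 was lower (median -0.01). Cs, the citrate synthase that opens the cycle, read 6529, 6417 and 6646 units at 54 h, against 5694, 5449 and 5580 units at 46 h, without overlap (log2 difference 0.23 ± 0.04 SE, limma adjusted p = 0.100). Idh3a, a subunit of isocitrate dehydrogenase, had 0.14 ± 0.05 SE (limma adjusted p = 0.335), and Suclg2, a subunit of succinyl-CoA synthetase, -0.15 ± 0.06 SE (limma adjusted p = 0.427).

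Of 75 mitochondrial ribosomal protein genes 0 passed limma, and at the unadjusted level 2 were higher and 4 were lower (median -0.0064), shares near those of all genes. Of 13 regulators of mitochondrial gene expression 0 passed and 1 was lower, Tfb2m, a factor of mitochondrial transcription, with a log2 difference of -0.19 ± 0.07 SE (limma adjusted p = 0.354). Its partner Tfam had -0.14 ± 0.08 SE (limma adjusted p = 0.569). Of 11 genes of pyruvate dehydrogenase and pyruvate import 0 passed and 0 reached that level (median 0.08), and of 8 carriers and uncouplers 0 passed and Ucp1, above, was higher (median 0.03).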

How the data were processed

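The authors deposited 1 table of probe set intensity values on a linear scale for 6 Affymetrix mouse arrays. RNA was purified on spin columns made for small inputs and given a biotin label, per the labels' protocols. How probes were summarised, corrected for background and scaled is not given in the sources used here. Of 45001 rows, 64 controls, 1 without values and 1 with a damaged value were left out. Genes were named through the platform's annotation, which gave exactly 1 gene for 34848 probe sets, and symbols are printed as given there.

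Values were used as log2(intensity + 16) without further scaling. Array medians of the tested probe sets differed by 0.0728 at most on that scale. Probe sets with a mean log2 value above the 40th percentile, 26961 in all, were tested for 54 h minus 46 h with limma 3.58.1 (R 4.3.3). The functions were lmFit and eBayes, whose prior variance followed the intensity. Tests were two-sided, and p-values were adjusted by Benjamini and Hochberg's method across all these probe sets. An exact permutation test of 3 against 3 arrays cannot reach 0.05, so single values were tested only in this fit. A gene's brightest probe set has the highest mean. The procedure was tested on simulated data. Tables and plots used Python 3.11.15.

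The members, the gene lists and the rule for named genes were chosen with earlier results of these data known. Named were the 10 largest log2 changes in each direction, up to 30 probe sets at an unadjusted p of 0.05 by smallest p, the brightest and dimmest of each complex, isoforms, the 5 genes whose probe sets differed most, and up to 3 genes of each other list by smallest p. Other probe sets of the same genes, and further subunits that complete the account of a complex, are given beside these and were chosen after their values were seen. The division by suffix was added after the data were seen. The alternatives were other scaling, filters, offsets and variance settings, a replicate block and leaving out each array.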

Additional observations from a re-analysis of the deposited data

How the results depend on the processing

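No member probe set passed the test when arrays were centred or quantile normalised, with other filters or offsets, without an intensity trend, with robust variances or with a replicate block. Without single arrays the number past the test ran from 0 to 1, the number higher at an unadjusted p of 0.05 in limma from 16 to 24 (10.9% to 16.3%, where 2.44% to 6.47% of all probe sets tested were), the number lower from 1 to 18 (0.68% to 12.2%, where 2.81% to 7.81% of all were), and the median log2 change from -0.000401 to 0.034. The medians ran from -0.0003 to 0.053 for complex I, -0.057 to 0.0056 for complex II, -0.0082 to 0.028 for complex III with cytochrome c, -0.014 to 0.019 for complex IV and -0.011 to 0.030 for complex V. The number lower, 5, was 1 with arrays centred on their median (0.68% against 3.79% of all probe sets tested). It was 8 after quantile normalization (5.44% against 5.68%) and 1 without a trend (0.68% against 5.26%). With arrays centred 12.2% were higher, against 4.27% of all, and after quantile normalization 19% against 5.9%. Without a trend 9 in place of 26 were higher (6.12% against 3.93%). With probe sets of suffix _at only, a choice made after seeing the data, 5 were higher and the median was -0.017. In all of these the cause was not tested.

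With the array label as a replicate block 16 were higher, or 10.9% against 3.05% of all probe sets tested. In that setting 2 were lower, or 1.36% against 3.64% of all, and 0 passed. Deviations of arrays with the same label correlated at -0.060, -0.41 and -0.49. Across labels the highest correlations were 0.46 (54 h replicate C with 46 h replicate B) and 0.38 (54 h replicate B with 46 h replicate C). No pairing by label showed in these values, but 3 arrays at each time are too few to decide whether the labels pair the arrays.

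Of 58 named probe sets, 11 changed sign in 25 of 863 values, all with log2 changes of at most 0.084 in size. Centring and quantile normalization gave Cox6a1 1417417_a_at 0.00439 and 0.00171, and Atp5j2 1435395_s_at 0.0115 and 0.00610. The other changes came from leaving out single arrays, over which each ran from its lowest to its highest value: Ndufs8 1423907_a_at -0.0112 to 0.0849, Ndufb1 1454771_at -0.128 to 0.255, Sdha 1426688_at -0.0569 to 0.0156, Uqcrq 1427880_at -0.206 to 0.124, Cox6a1 1417417_a_at -0.0394 to 0.025, Atp5c1 1438809_at -0.0251 to 0.146, Cox4i1 1448322_a_at -0.0179 to 0.0195, Cox6b1 1436757_a_at -0.0345 to 0.019, Cox8c 1443789_x_at -0.235 to 0.2002, Cox8c 1455167_at -0.103 to 0.0351, Atp5j2 1435395_s_at -0.0164 to 0.0119.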
